A study of Bos taurus with 2 samples.

Results

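AKAP17A and LOC112445918 are a pair of protein-coding genes in the pseudoautosomal region (PAR) of the cattle Y-chromosome whose annotated positions overlap. They are 2 of the 235 protein-coding genes placed on the chromosome by the ARS-UCD2.0 gene annotation. The pair was chosen by its PacBio and ONT methylation levels in these same libraries, with a highly methylated gene body beside a low shared overlap, so the levels of gene ends, overlap and bodies are given as a description without tests. Members were the CpG sites inside either gene or within 1 kb of it, from 830192 to 850342 on chromosome Y. There were 978 such CpGs out of 974748 on the chromosome with at least 10 PacBio reads, and all 978 met that minimum.

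CpG methylation was measured on lung DNA of cattle (Bos taurus), with 1 library sequenced as PacBio HiFi reads and 1 as Oxford Nanopore Technologies (ONT) reads. Per the study, the Y-chromosome came from the Wagyu haplotype of a male fetus at 120 days of gestation with a Wagyu sire and a Charolais dam. The labels name the tissue but no animal, age or treatment, and there was no contrast other than the platform. Per the study, both platforms were used on the same sample. No error between animals can be given, and every spread below is the SD over CpG sites within a library, which are neighbours on the same molecules and not replicates. Lung is a mixture of cell types, and DNA methylation alone gave no marker by which the labelled tissue could be checked.

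Methylation of the cytosine in CpG dinucleotides is the main DNA modification of mammalian genomes. Clusters of CpGs at gene starts, called CpG islands, are usually free of methylation in active and in many silent genes, while the bodies of transcribed genes are usually methylated. AKAP17A encodes an A-kinase anchoring protein of the nucleus, which binds protein kinase A and has been linked to pre-mRNA splicing. It is a known pseudoautosomal gene in several mammals, with a copy on the X and another on the Y of a male. LOC112445918 is named only by its gene number, and its function was not given in the sources used here.

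AKAP17A (gene 100850391) lies at 838565 to 849342 and is 10778 bp long. In the study's annotation it is read towards higher coordinates. LOC112445918 (gene 112445918) lies at 831192 to 840371, is 9180 bp long and is read the other way. The genes share 1807 bp, from 838565 to 840371, which is 16.8% of AKAP17A and 19.7% of LOC112445918. Since they run in opposite directions, the shared bases hold the 5′ end of both. Below, positions within the locus are given in bp from the first base of AKAP17A, with negative values on the side of LOC112445918. Exon and intron borders were not used here.

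PacBio depth over the locus was 22 to 57 reads per CpG with a median of 47, against a median of 78 reads in the PAR and 37 in the rest of the chromosome. The body of AKAP17A had a median depth of 47 reads and that of LOC112445918 of 49, while the other 10 protein-coding PAR genes of the table ranged from 34 to 85 with a median of 72.5. Per the study, LOC112445918 was not found in the PAR of the cattle X and lies in a segment that the X assembly lacks. The gene lists of the study pair no X gene with AKAP17A or with the other 10 genes either. Reads of the PAR in a male can come from the X or the Y, and the files do not separate them. Whether the levels here, at a depth between those of the PAR and the rest of the chromosome, come from 1 copy or a mixture was not tested. In an intermediate level, methylation of 1 copy and methylation in part of the cells cannot be told apart. The ONT data carry no read count, and the depth behind ONT values is unknown.

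Over the locus the PacBio level averaged 79.3% and the ONT level 70.9%, with extremes of 2.3% and 97.6% on PacBio. Methylation fell into 3 zones. A stretch that held the first base of AKAP17A was almost free of methylation, and AKAP17A beyond the overlap was methylated at nearly every CpG. LOC112445918 before the stretch held CpGs of all levels, with a mean and spread near those of the PAR. A shoulder of 22 CpGs at mostly intermediate levels lay between the stretch and the methylated part of AKAP17A. Of the 978 CpGs, 132 were under 20% and 760 over 80% on PacBio. The shares were 13.5% and 77.7%, against a background of 7.91% and 62.8% of all PAR CpGs, and of 8.53% and 44.6% over the whole chromosome. On ONT 136 CpGs were under 20% and 583 over 80%, or 13.9% and 59.6%, where the PAR had 8.45% and 33.3% and the whole chromosome 9.91% and 14.4%. These counts use the contrast by which the locus was chosen, and nothing is read from them.

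**Figure D1:**
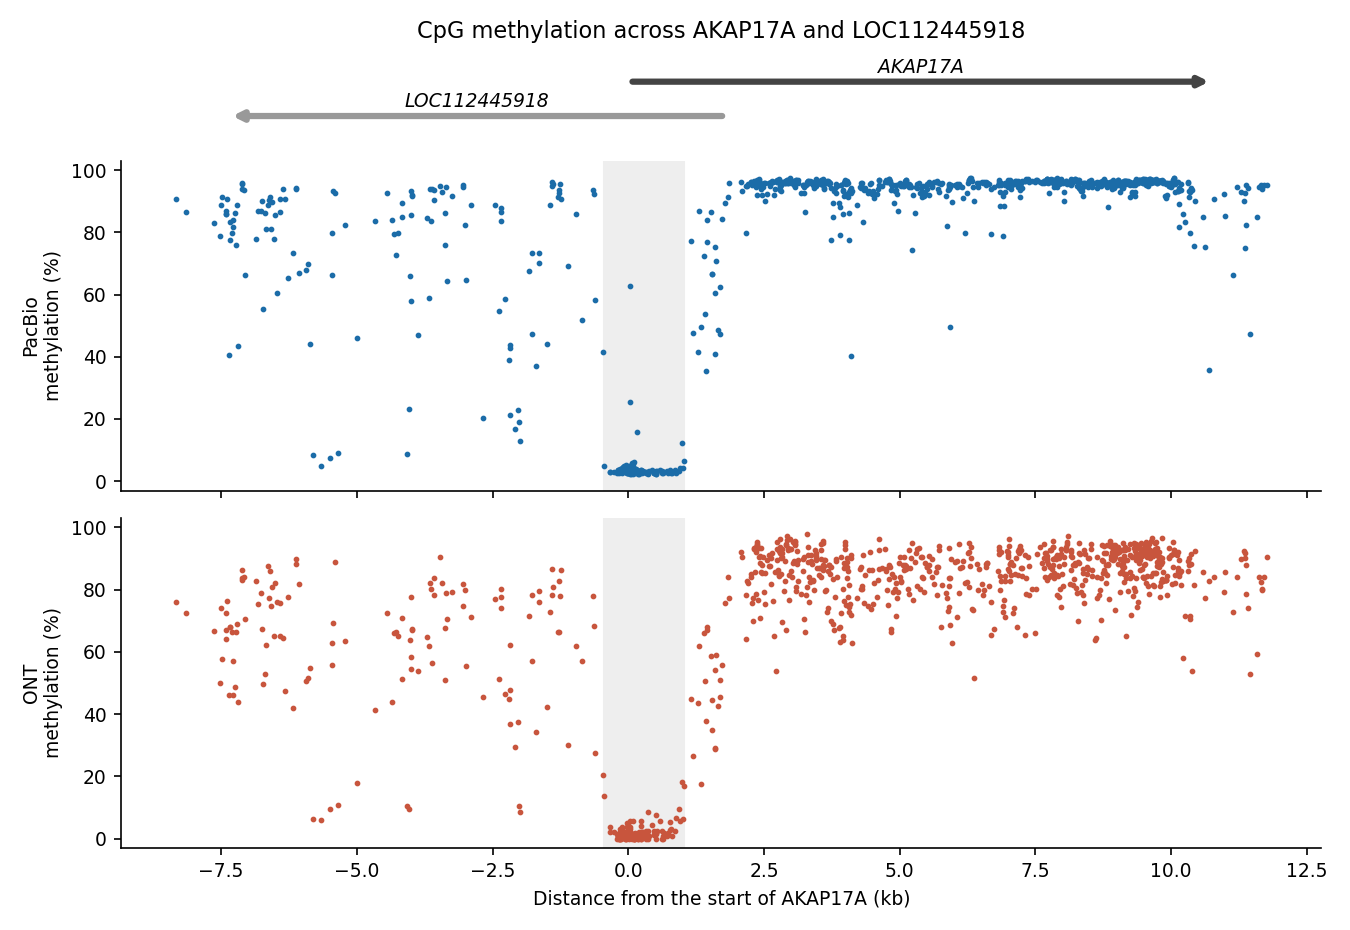
Methylation in percent of each of the 978 CpGs against distance from the start of AKAP17A in kb, PacBio above and ONT below, 1 library each. Arrows mark both genes in their direction of reading, and grey shading marks the unmethylated stretch of 126 CpGs, which sits close to 0 on both platforms. Scattered levels lie to its left, and to its right a short shoulder leads to a band near 95% (PacBio).

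The shared overlap held 112 CpGs, or 62.0 per kb. Its PacBio level was 16.3% ± 25.9 (SD, n = 112 CpGs) and its ONT level 11.3% ± 19.7. The mean described few of its CpGs, since the PacBio median was 3.30% and the maximum 89.3%. On PacBio 88 of the 112 CpGs lay under 20%, 19 between 20% and 80% and 5 over 80%. On ONT 91 lay under 20% and none over 80%. On PacBio the 88 low CpGs were all on the side of the AKAP17A start, and the 5 over 80% lay towards the start of LOC112445918.

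The unmethylated stretch was delimited as the longest run of CpGs whose running value over 5 CpGs stayed under 20%. With a running mean it measured 954 bp and 82 CpGs on PacBio, from 36 to 989, and 1458 bp and 125 CpGs on ONT, from -452 to 1005. On PacBio 2 adjacent CpGs described below divided the run and left a second one of 347 bp and 39 CpGs beside it, from -333 to 13. The PacBio runs also ended inside the ONT run at both outer edges. With a running median, a setting added after the data were seen, both platforms gave the same stretch, chromosome Y from 838113 to 839597, which is 1485 bp with 126 CpGs. It is this stretch that is meant from here on.

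Inside it the PacBio level was 4.12% ± 5.83 (SD, n = 126 CpGs) and the ONT level 2.13% ± 2.90. All 126 CpGs were under 20% on ONT and 124 on PacBio. CpGs were packed at 84.8 per kb with a median spacing of 6 bp, and PacBio depth was 45 to 48 reads. The stretch began 452 bp before AKAP17A, where 36 CpGs had a PacBio level of 3.37% ± 0.729, and reached 1032 bp into the gene, where 90 CpGs had 4.42% ± 6.88. It therefore covered the annotated start of AKAP17A from both sides. It ended 774 bp short of the annotated start of LOC112445918.

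The first CpG of the stretch, at -452, had a level of 4.9% on PacBio and 13.7% on ONT. The CpG 21 bp further out, at -473, had 41.4% and 20.4%. The last CpG, at 1032, had 6.4% and 16.9%, and the next one, at 1146, had 77.3% and 44.9%. The level thus changed between neighbouring CpGs on both sides, and at both edges the step was smaller on ONT than on PacBio.

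Of the 126 CpGs, 2 were over 20% on PacBio. At 25 bp from the AKAP17A start, 28 of 46 PacBio reads were estimated as modified, and the level was 62.7% (95% Wilson interval of the estimated counts 46.5% to 73.6%). ONT gave 1.41% and 1.49% in its rows for the 2 strands of that CpG. At 31 bp, 11 of 46 reads were estimated as modified, with a level of 25.5% (13.9% to 37.9%), against 0 and 5.97% on ONT. The sites lay 6 bp apart among CpGs of low PacBio level, and the platforms gave opposite readings of the first one. With 1 library each, which reading holds was not tested. Wilson intervals here and below cover counting error only.

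On the side of LOC112445918 the level rose within 5 CpGs. The CpGs at -473, -607, -623, -647 and -850 had PacBio levels of 41.4%, 58.2%, 92.3%, 93.6% and 51.8%. Going outwards, the first 5 consecutive CpGs with a mean over 80% on PacBio began at -961, which is 509 bp from the edge of the stretch. On the side of AKAP17A they began at 1692, after 660 bp and 19 CpGs.

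Between the end of the stretch and the start of LOC112445918, 22 CpGs formed a shoulder of intermediate levels. Their PacBio level was 64.8% ± 16.9 (range 35.5% to 89.3%) and their ONT level 48.3% ± 15.2. None was under 20% on PacBio and 5 were over 80%. Some neighbouring sites in it had PacBio intervals that did not overlap. At 1286 the PacBio level was 41.4% (30.2% to 57.8%) and 18 bp further, at 1304, it was 86.8% (74.3% to 93.9%), and the ONT levels of 43.4% and 61.9% had the same order. At 1335 the values were back to 49.5% on PacBio and 17.6% on ONT. In the 1 kb beyond the annotated start of LOC112445918, which belongs to AKAP17A alone, 57 CpGs had a PacBio mean of 95.01% ± 2.57 and an ONT level of 85.3% ± 8.79.

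**Figure D2:**
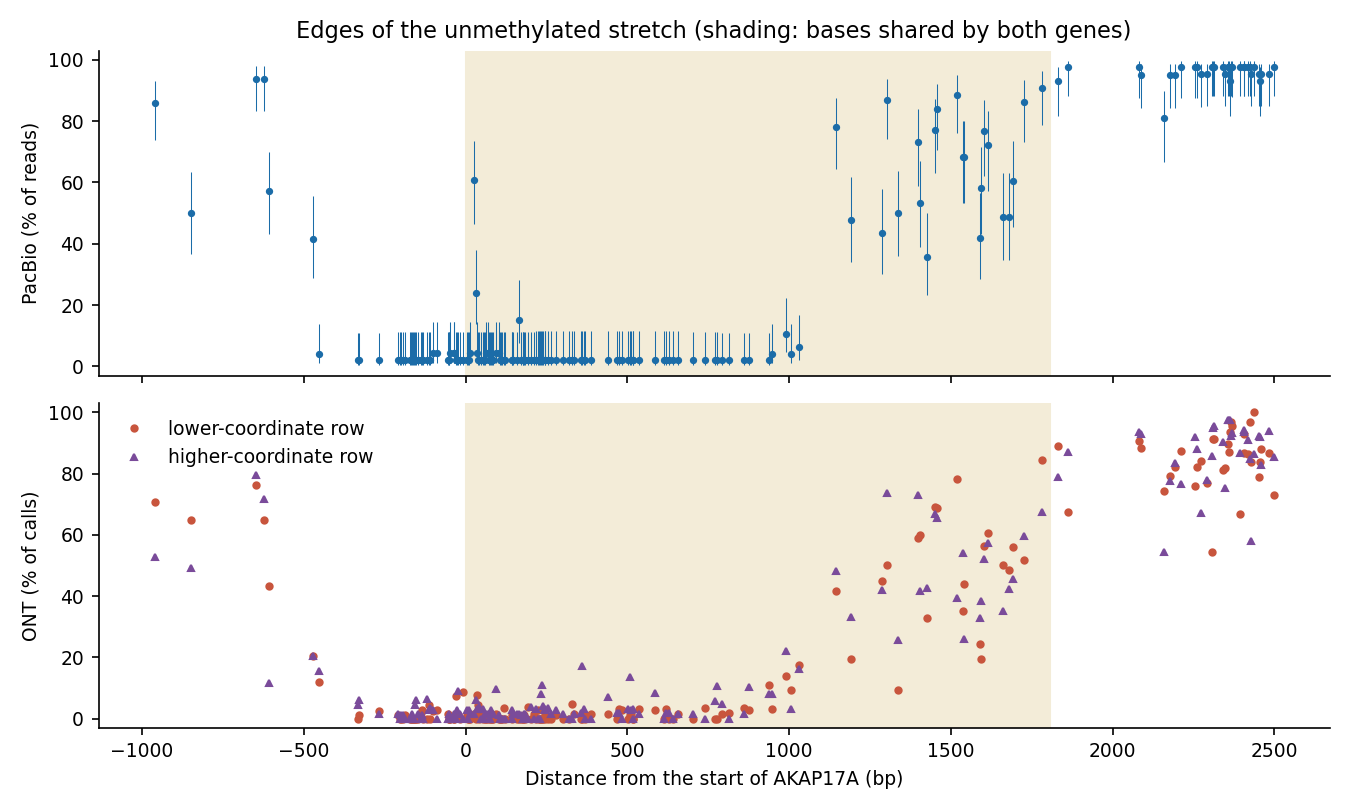
Levels of single CpGs around the start of AKAP17A, in bp from its first base. The upper panel gives the share of PacBio reads estimated as modified with 95% Wilson intervals and the lower panel the ONT level in both strand rows, and beige marks the 1807 bp shared by the genes. Outliers at 25 and 31 bp appear only on PacBio, and the shoulder of 22 intermediate CpGs fills the right part of the shared bases on both platforms.

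Windows of 1 kb on either side of each gene end gave each end a level. The 5′ end of AKAP17A averaged 7.17% on PacBio and 4.30% on ONT over 130 CpGs, with 122 of the 130 under 20% on PacBio. The 5′ end of LOC112445918 averaged 79.1% ± 28.4 on PacBio and 68.9% ± 27.2 on ONT over 87 CpGs, of which 8 were under 20% and 61 over 80% on PacBio. Although the 2 annotated starts lie 1806 bp apart in the same overlap, only the first was inside the unmethylated stretch. The 3′ end of AKAP17A had 91.2% ± 10.04 on PacBio and 84.2% ± 8.60 on ONT over 80 CpGs. The 3′ end of LOC112445918 had 82.4% ± 12.4 and 69.1% ± 12.1 over 42 CpGs. None of the CpGs at either 3′ end was under 20% on either platform.

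The body of AKAP17A, more than 2 kb inside both ends, had the highest PacBio mean of the 5 regions set in order below. Its 470 CpGs had a PacBio mean of 94.6% ± 4.44 with ONT at 85.1% ± 7.88. In all of AKAP17A beyond the overlap, 660 of 674 CpGs were over 80% on PacBio, 637 were over 90%, and none was under 20%. The body stood 78.4 points above the shared overlap on PacBio and 73.8 points on ONT.

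The lowest CpGs in this part of AKAP17A were isolated. At 10703 the PacBio level was 35.7% (24.0% to 50.5%, 17 of 47 reads), while ONT gave 82.7%. At 4099 PacBio gave 40.3% and ONT 71.9%, and at 5920 PacBio gave 49.5% and ONT 68.6%. The next lowest, at 5227, had 74.3% on PacBio. All 3 low sites were higher on ONT by more than 15 points, against a general tendency of ONT to be lower. They were picked for their low PacBio levels, which favours a higher ONT level at them, so nothing is read from this.

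The highest windows of 500 bp were in the second part of AKAP17A. The window from 7500 to 7999 had 96.2% on PacBio and 87.98% on ONT (44 CpGs), that from 9500 to 9999 had 96.1% and 88.5% (67 CpGs), and that from 9000 to 9499 had 95.8% and 88.5% (74 CpGs). The lowest windows surrounded the gene start. The window from 500 to 999 had 3.41% on PacBio and 3.58% on ONT (23 CpGs), that from -500 to -1 had 4.39% and 2.31% (37 CpGs), and that from 0 to 499 had 4.75% and 1.51% (65 CpGs). Of 37 windows with at least 5 CpGs, 3 were under 20%, 9 between and 25 over 80% on PacBio. The corresponding shares of PAR windows were 2.79% under 20% and 58.1% over 80%.

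CpG number alone did not set apart the methylated from the unmethylated windows of AKAP17A. From 9000 to 9999, near the 3′ end, 141 CpGs lay in 1000 bp with a median spacing of 5 bp. All 141 were over 90% on PacBio, with a mean of 95.9% ± 1.17 and an ONT mean of 88.5% ± 5.45. The first 1 kb of the gene had fewer CpGs, 88, and a PacBio level of 4.40% ± 6.95 with an ONT level of 2.05% ± 2.62. The gene thus began with a dense unmethylated block and held a denser, methylated one near its other end, at about the same PacBio depth of 46 and 47 reads.

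Windows of similar CpG number elsewhere in the PAR are given for comparison. Outside the locus 28 PAR windows of 500 bp held at least 60 CpGs, of which 26 were under 20% and 2 over 80% on PacBio. The locus had 3 such windows, 1 under 20% and 2 over 80%. With at least 40 CpGs, 65 of 102 windows outside the locus were under 20% and 27 over 80%, and in the locus 1 of 9 was under 20% and 8 were over 80%. With the windows moved by 250 bp, 19 of 21 windows with at least 60 CpGs outside the locus were under 20% and 2 over 80%, and the counts in the locus were as before. Windows of a single gene are neighbours, so no test was made.

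**Figure D3:**
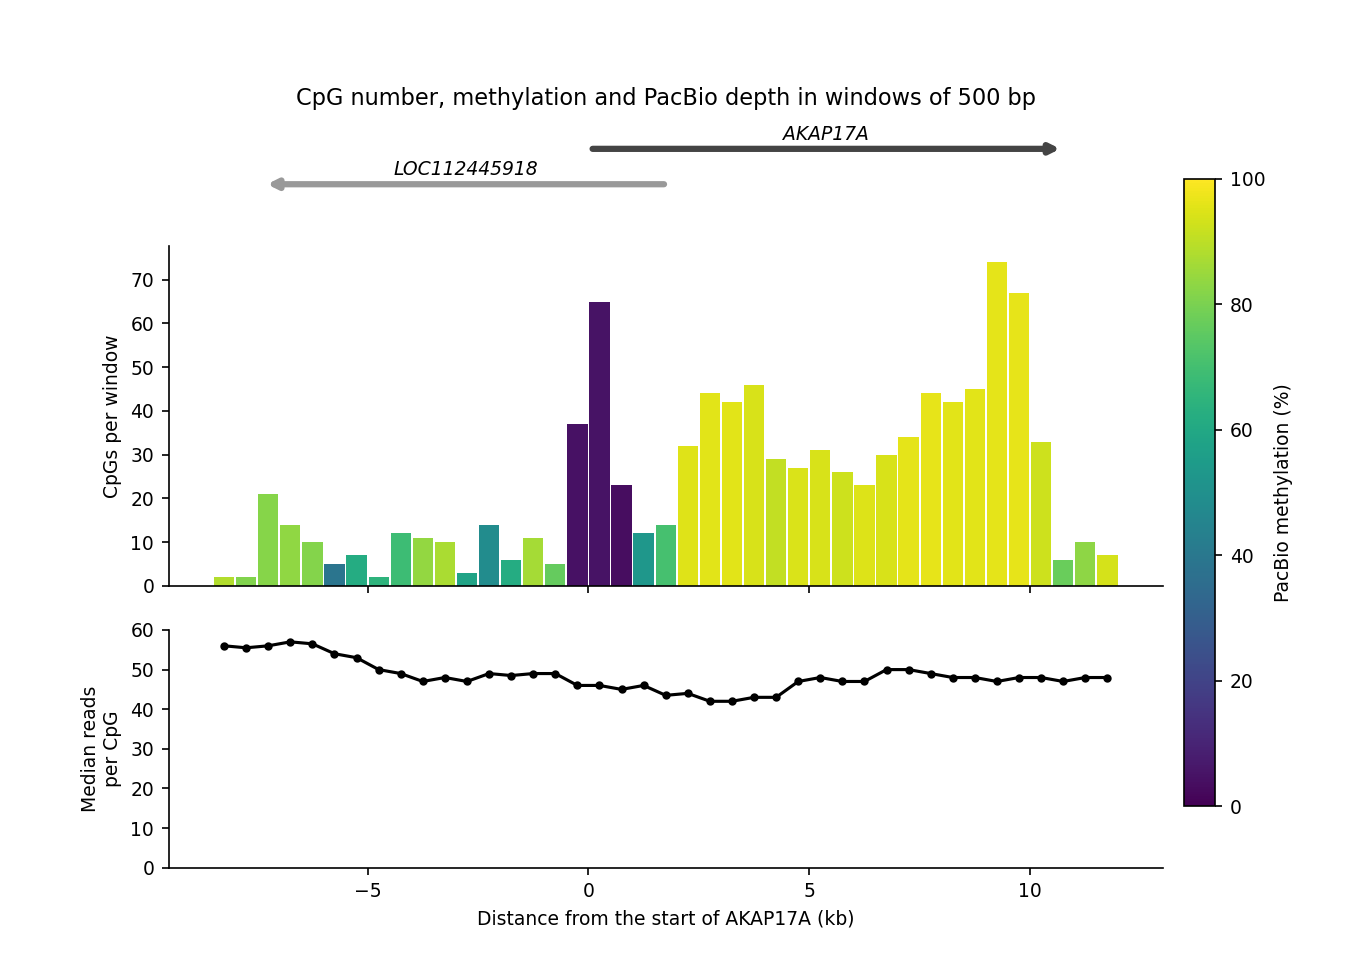
CpGs per window of 500 bp along the locus, coloured by PacBio methylation in percent, with the median PacBio reads per CpG below, against distance from the start of AKAP17A in kb. The dark bars are the unmethylated start with up to 65 CpGs, the tallest bars, 74 and 67 CpGs, are among the most methylated, and depth stays between 42 and 57 reads.

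**Figure D4:**
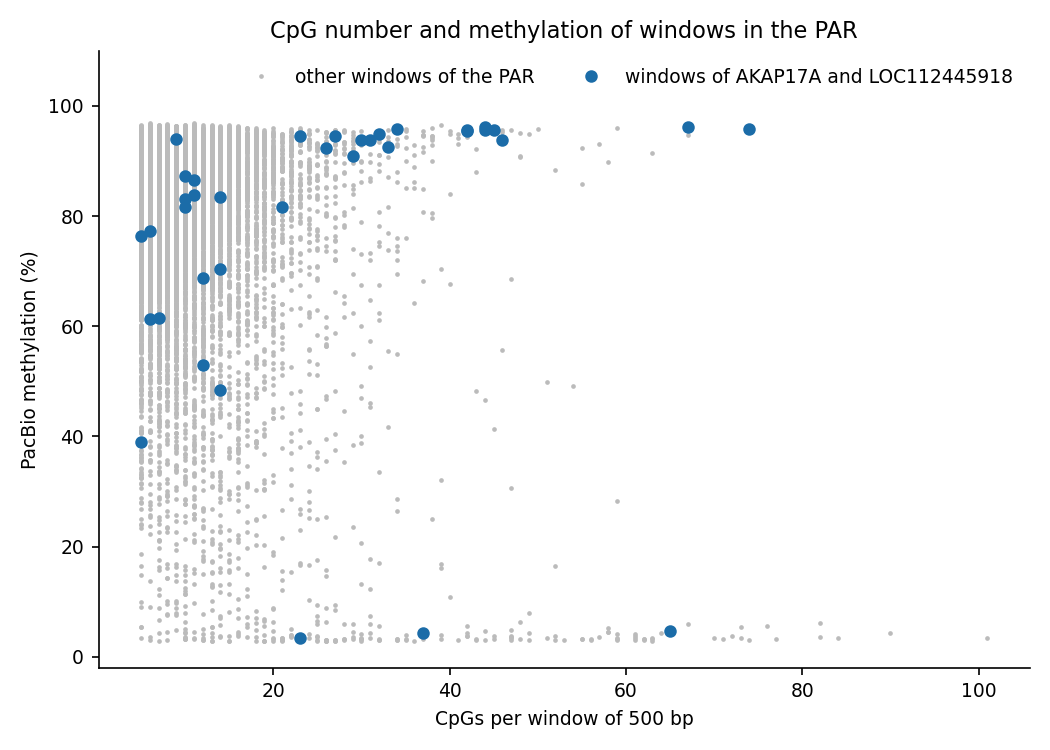
PacBio methylation in percent against CpGs per window of 500 bp for PAR windows with at least 5 CpGs, 37 of the locus in blue and 11292 others in grey. Among windows with at least 60 CpGs most grey points lie near the bottom, while 2 of the 3 blue points lie near the top.

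LOC112445918 outside the overlap held 22.0 CpGs per kb, where the PAR held 19.99 and the whole chromosome 16.4. Its body, more than 2 kb inside both ends, held 84 CpGs or 16.2 per kb, and had a PacBio mean of 65.0% ± 31.0 with ONT at 55.4% ± 25.9. On PacBio 12 of the 84 were under 20%, 31 between and 41 over 80%. Most of the low ones belonged to the unmethylated stretch, which the body window entered from -452 to -194. From the far end of the gene up to the stretch, 126 CpGs remained, with a median spacing of 30 bp, a PacBio mean of 72.6% ± 24.6 with ONT at 62.0% ± 21.0. Of these 69 were over 80% on PacBio, 49 lay between 20% and 80%, and 8 were under 20%. The shares over 80% and under 20%, 54.8% and 6.35%, were both below the PAR background of 62.8% and 7.91%, and the mean and SD of all PAR CpGs were 74.8% ± 26.9, so the spread in this gene was no wider than in the PAR.

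The 8 low CpGs lay in 3 places. At -5812, -5663, -5491 and -5340 the PacBio levels were 8.4%, 4.8%, 7.6% and 9.1%, and the ONT levels 6.13%, 5.86%, 9.54% and 10.7%. The first 3 of them followed each other, and between these and the one at -5340 lay 4 CpGs, from -5466 to -5406, with PacBio levels of 66.4% to 93.3%. At -4068 a lone CpG had 8.70% on PacBio and 10.4% on ONT. At -2083, -2010 and -2003 PacBio gave 16.9%, 18.9% and 12.8% and ONT 29.3%, 10.5% and 8.63%. Of the 8 CpGs, 7 were under 20% on both platforms, and the exception was that at -2083. They were single sites or short groups. The running mean over 5 CpGs fell under 20% on PacBio at 1 CpG among them, at -2023 (23.0% by itself), and on ONT at none.

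The flanks were methylated. The 1 kb before LOC112445918 held 10 CpGs with 86.8% ± 3.84 on PacBio and 67.7% ± 8.49 on ONT. The 1 kb after AKAP17A held 20 CpGs with 87.6% ± 12.2 on PacBio and 81.2% ± 10.3 on ONT. The nearest protein-coding gene on the lower side, LOC132344462, ended at 818420.

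In the order of PacBio means, the shared overlap was lowest (16.3%), followed by the body of LOC112445918 (65.0%), the far end of LOC112445918 (82.4%), the far end of AKAP17A (91.2%) and the body of AKAP17A (94.6%). ONT gave the same order, with 11.3%, 55.4%, 69.1%, 84.2% and 85.1%. The last pair differed by less than the SD over their CpGs on both platforms. The body and the far end of LOC112445918 differed by more than the SD of the far end and by less than that of the body, on both platforms. The far ends of the genes differed by less than either SD on PacBio and by more on ONT.

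ONT was lower than PacBio at 893 of the 978 CpGs, or 91.3%, against 85.5% of all PAR CpGs. The mean difference, ONT minus PacBio, was -8.37 points over the locus and -9.86 points over the PAR. The difference was -1.99 points in the unmethylated stretch, -8.78 in AKAP17A outside the overlap, -10.6 in LOC112445918 before the stretch and -16.4 in the shoulder. Across the 978 CpGs the platforms' levels had a Pearson r of 0.958 and a Spearman rho of 0.733. Outside the stretch (852 CpGs) r was 0.802 and rho 0.60, and inside it (126 CpGs) they were 0.0810 and -0.0489. The high value over the locus thus described the contrast between the zones. Within the unmethylated stretch the PacBio quartiles were 2.8% and 3.6%, and 90 CpGs had an ONT row of 0. With so little range, the values inside it cannot show whether the platforms share an order of CpGs. CpGs are not independent, and no p-value is given.

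Single CpGs at which the platforms differed by more than 40 points numbered 6. PacBio was higher at 5 of them and ONT at 1, the site at 10703. At 4 of the 6, at -6324, -4658, -4362 and 2720, the ONT strand rows disagreed with each other, for example 15.4% and 92.1% at 2720, where PacBio gave 96.4%. At 25 and 10703 both strand rows agreed and differed from PacBio. Over the locus the ONT rows of a CpG differed by a mean of 9.40 points, and 6 CpGs had rows more than 50 points apart. Exact zeros made up 114 ONT rows at 90 CpGs, all of them inside the unmethylated stretch, and 24 CpGs had 0 in both rows. PacBio was under 20% at all of these CpGs but that at 31 bp, where 1 ONT row was 0.

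The gene table holds 12 protein-coding genes in the PAR, all at its outer end, and the pair was set beside the other 10. The study annotated further protein-coding genes in the PAR, up to its inner boundary, which the gene table lacks. Ranks below therefore hold among these 12 and not in the whole PAR. The 5′ end of AKAP17A (7.17% on PacBio) was one of 8 under 20%, and the other 10 genes ranged from 3.48% to 64.0% with a median of 6.68%. The 5′ end of LOC112445918 (79.1%) was above all of the other 10, but 57 of its 87 CpGs lay beyond the gene, in AKAP17A, at 95.01%. The 30 CpGs inside the gene averaged 48.8% ± 30.6 on PacBio and 37.6% ± 22.4 on ONT, and 48.8% is below the highest of the other 10 windows. The body of AKAP17A (94.6%) was above those of the other 10, which ranged from 4.08% to 92.6% with a median of 70.0%, the highest of them being LOC100298830. The body of LOC112445918 (65.0%) was 5th from the lowest, with a window that included CpGs of the unmethylated stretch. From its far end up to the stretch the gene had 72.6%, and that part was not ranked. In CpG content the members lay at opposite ends, with 69.3 per kb in the AKAP17A body, second to LOC132344463 with 78.4, and 16.2 per kb in LOC112445918, the lowest of the 12.

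**Figure D5:**
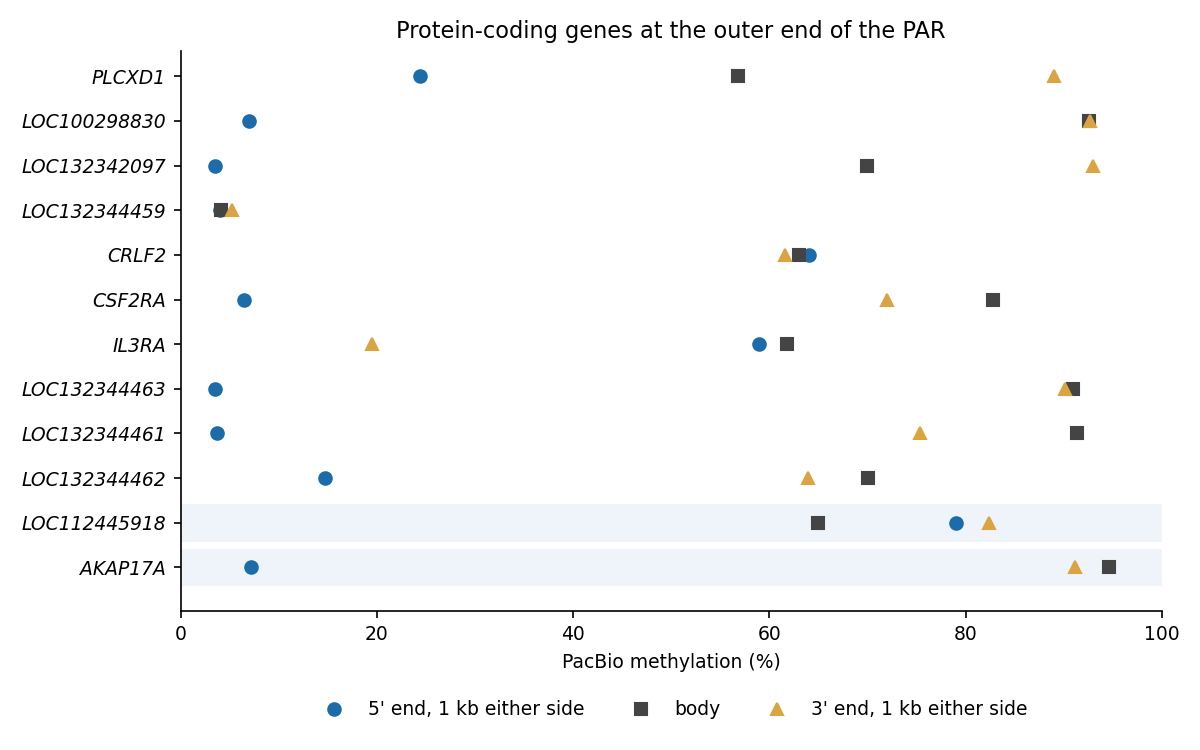
PacBio methylation in percent of the 5′ end, body and 3′ end of the 12 protein-coding PAR genes in the gene table, in order of position, 1 library, with the members shaded. AKAP17A shows the wide gap between an unmethylated 5′ end and a methylated body and 3′ end that several others show, and in LOC112445918 all 3 values lie between 65.0% and 82.4%.

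Genes most like each member were ranked on 3 PacBio values, the lower end, the higher end and the body. The ranking covered 82 protein-coding genes with at least 5 CpGs in each of these. PAR genes absent from the gene table were not among them. The body value of LOC112445918 included CpGs of the unmethylated stretch. Nearest to AKAP17A were LOC100298830 (distance 2.54 points, PAR, 54425 to 62973), LOC132344463 (5.33, PAR) and LOC132344466 (5.55, in the male-specific region). Nearest to LOC112445918 were LOC132344532 (9.35), LOC132344536 (9.71) and LOC132344537 (11.5), all in the male-specific region between 59266554 and 59397196. The gene nearest to AKAP17A had 6.93% and 92.7% at its ends and 92.6% in its body. The gene nearest to LOC112445918 had 75.2% and 77.5% at its ends and 71.9% in its body, with only 9 CpGs in one of the end windows.

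By the running median, 432 unmethylated stretches were found in the PAR, of which 89 were at least 500 bp long with a median of 993 bp and a maximum of 16366 bp. The one at AKAP17A ranked 28th by length and 20th by number of CpGs. It was thus longer than the median of those 89.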

How the data were processed

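The study estimated modification of PacBio HiFi reads with Primrose, aligned them with pbmm2 and summarised them with pb-CpG-tools. In the PacBio data as deposited, a CpG has a score in percent, a read count, and the counts of reads taken as modified and as unmodified, which the authors' tool estimates. For ONT the study used Dorado, Winnowmap and modbam2bed, with thresholds of 20% for unmethylated and 80% for methylated bases, and the authors deposited a percent value for each strand and no count. The study set missing values to 0, as stated for PacBio, and whether this holds for ONT is not known.

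PacBio scores on the chromosome ran from 1.70 to 97.9 and were never 0. They are model estimates, and levels of a few percent lie at the low end of their range. Both files were placed on the ARS-UCD2.0 Y-chromosome, the PacBio file by turning its direction and the ONT file by adding 20554 bp, and all 975164 PacBio CpGs then had an ONT pair. The ends of the other 10 PAR genes held 67.6 CpGs per kb at this placement, the highest of all shifts tried, and 39.2 at the positions in the ONT file.

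ONT levels are means of 2 strand rows. CpGs needed 10 PacBio reads. Means are unweighted over CpGs. With 1 library per platform no test was made, and Wilson intervals used the estimated counts. PAR windows, ends and bodies followed fixed distances, and named windows, CpGs and genes followed set rules, with the exceptions called after their values: the dense block, the low CpGs of LOC112445918, the sites of large platform gaps and the edge CpGs were chosen from the data. The members and lists were chosen with earlier results of these data known. Strand came from the study's annotation. Coverage minimum, weighting, strand row, window and threshold were varied. Scripts used Python 3.11.15, numpy 2.4.6, pandas 2.3.3 and matplotlib 3.10.9 and were tested on simulated data.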

Additional observations from a re-analysis of the deposited data

How the results depend on the processing

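For 15 values 122 alternatives were computed, of which 26 were added after the data were seen (moved gene positions and the running median). A level counted as kept within the 95% Wilson interval at the median PacBio depth of its segment (used for ONT too, whose depth is unknown), and a length within 1.5 times. 109 were kept, 13 moved and 0 changed sign. Some were bound to be kept. Minimums of 4 and 20 reads could change no value, since the lowest depth in the locus was 22 reads. Leaving out CpGs with an ONT row of 0 could not change the AKAP17A body or the far ends, which held none. With the body taken from 1 kb inside the gene ends, which then includes the unmethylated stretch, LOC112445918 had 33.2% on PacBio and 27.3% on ONT. Without CpGs that had a 0 in either ONT row, the overlap had 24.3% on ONT, since these CpGs all lie in the stretch. The PacBio stretch measured 1485 bp at a threshold of 30% and also by the running median. With gene positions moved 500 bp lower the overlap had 6.21% on PacBio and 3.55% on ONT. Moved 500 bp higher it had 45.6% and 36.9%, the body of LOC112445918 had 34.9% and 28.7%, and the AKAP17A body exceeded the overlap by 49.2 and 48.6 points. The levels of the overlap and of LOC112445918 are thus bound to the annotated positions, and those of the AKAP17A body (93.6% to 95.8% on PacBio, 83.8% to 86.4% on ONT) and of both far ends were kept throughout. No paired analysis was possible because the platforms, used on the same sample per the study, had 1 library each, which makes a single pair. At 47 reads, the median depth, single CpGs are known only to within their intervals, and differences of a few points between sites were not detectable.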
